A study of Mus musculus with 8 samples.

Results

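Mitosis and cytokinesis genes are the genes whose RNA and protein a cell makes before and during division. A list of 44 such genes was matched by symbol, and all 44 were found among the 19669 genes of the deposited table. Their levels were followed along red cell maturation, in progenitors and along neutrophil maturation. The cells came from erythroblastic islands, in which red cell precursors surround a central macrophage, which were isolated on BSA gradients and freed with EDTA before 10x Genomics V3.1 library preparation. All mice were male and of the lupus-prone strain Sle1.Yaa. The labels list 2 Tg_BM and 2 Tg_Spleen samples with a human TLR8 transgene, labelled Anemic, and 3 WT_BM and 1 WT_Spleen control samples, labelled Non-Anemic. BM stands for bone marrow. The controls share the Sle1.Yaa background, so no sample is from a mouse free of the lupus-prone loci, and the sources used here do not give the promoter of the transgene or the ages. Whether each sample is 1 mouse is not stated either.

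The table pools all 8 samples as 24942 cells and 248384567 UMIs (unique molecular identifiers, each standing for 1 captured RNA molecule), and its columns carry cell barcodes alone. No cell could be tied to a tissue or a genotype, so the pooled table was treated as 1 sample, with no test and no comparison of transgenic with control mice. The barcodes form 8 alphabetically sorted runs of 447 to 6787 cells and 6195876 to 48442321 UMIs. These runs served as unnamed libraries for ranges, and a run counts below where it holds at least 20 cells of a class. Of the cells, 1031 (4.13%) carried a barcode seen in more than 1 run. They made up 36.8% of the stem or multipotent progenitor-like cells and 15.3% of the earliest erythroid-like cells, and without them the summed levels of the listed genes in these classes were 1851 instead of 1926 and 6591 instead of 6547.

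Cells were clustered with the listed genes, other mitosis genes and replication genes left out, and the clusters were named from marker genes. The 10183 erythroid-like cells were ordered by the share of their UMIs that came from globin genes, which fill the cell as hemoglobin is made. This gave 5 stages, of under 2% globin, 2 to 20%, 20 to 60%, 60 to 80%, and 80% or more. The other 5 classes were stem or multipotent progenitor-like, granulocyte-monocyte progenitor-like, neutrophil precursor-like, immature neutrophil-like and mature neutrophil-like cells. Together the 10 classes held 16562 cells, 66.4% of those kept. Levels are UMIs per 1000000 non-globin UMIs (non-globin CPM) unless another scale is named. They describe summed RNA, and more dividing cells in a class cannot be told apart from more RNA in each.

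In dividing cells, cyclin A and the B-type cyclins bring the kinase Cdk1 to full activity once Cdc25 phosphatases remove its inhibitory phosphates. Polo-like and Aurora kinases then build the spindle, kinetochores tie the chromosomes to it, and the spindle checkpoint holds back the anaphase-promoting complex until all chromosomes are attached. That complex, with its activator Cdc20 and the ubiquitin-conjugating enzyme Ube2c, has securin and the cyclins destroyed, and the central spindle and an actin ring then part the daughter cells. Red cell precursors divide several times while they fill with hemoglobin, leave the cycle and expel the nucleus. Neutrophils divide up to the myelocyte and then mature without dividing.

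The summed level of the 44 genes climbed to the 20 to 60% globin stage and dropped in the last stage. Their summed level was 6547 in cells under 2% globin, 13654 at 2 to 20%, 24274 at 20 to 60%, 21431 at 60 to 80% and 5668 at 80% or more. At the peak they took 2.43% of all non-globin UMIs. Across runs the lowest, median and highest values were 3691, 5525 and 7046 in the first stage, 11574, 13071 and 15517 in the second, and 18364, 25450 and 28032 in the third. No run of one of these 3 stages overlapped a run of the next. The fourth stage spread more widely, at 13518, 18626 and 32444, and the last was narrow, at 4856, 5665 and 6063. Counting error was small beside this spread, with an exact 95% Poisson interval of 5560 to 5777 for the last stage.

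Outside the erythroid-like cells the same genes summed to 1926 in stem or multipotent progenitor-like cells, 3204 in granulocyte-monocyte progenitor-like cells, 4810.4 in neutrophil precursor-like cells, 3524 in immature and 280.3 in mature neutrophil-like cells. The mature neutrophil-like cells, a class known not to divide, had the lowest value of the 10 classes, with runs of 186.2, 251.2 and 434.0. Every erythroid-like stage stood above it in CPM in every run counted. Free RNA was not measured, and the classes differ in depth, with a median of 5130.5 non-globin UMIs in mature neutrophil-like cells and 812 in the last erythroid-like stage. The order of the middle classes is less firm, since the runs of granulocyte-monocyte progenitor-like cells (2278, 3049 and 4147) lay within the range of the immature neutrophil-like cells (2302, 3591 and 6731) but for their lowest. The stem or multipotent progenitor-like class joins 2 unlike clusters. A shallow cluster of 680 cells, with a median of 751 UMIs, summed to 3656 (3109 to 4088 in 6 runs). A deeper cluster of 594 cells, with a median of 12576 UMIs, summed to 1794 (534.0 to 3161 in 5 runs). The pooled 1926 lies near the deeper cluster.

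**Figure D1:**
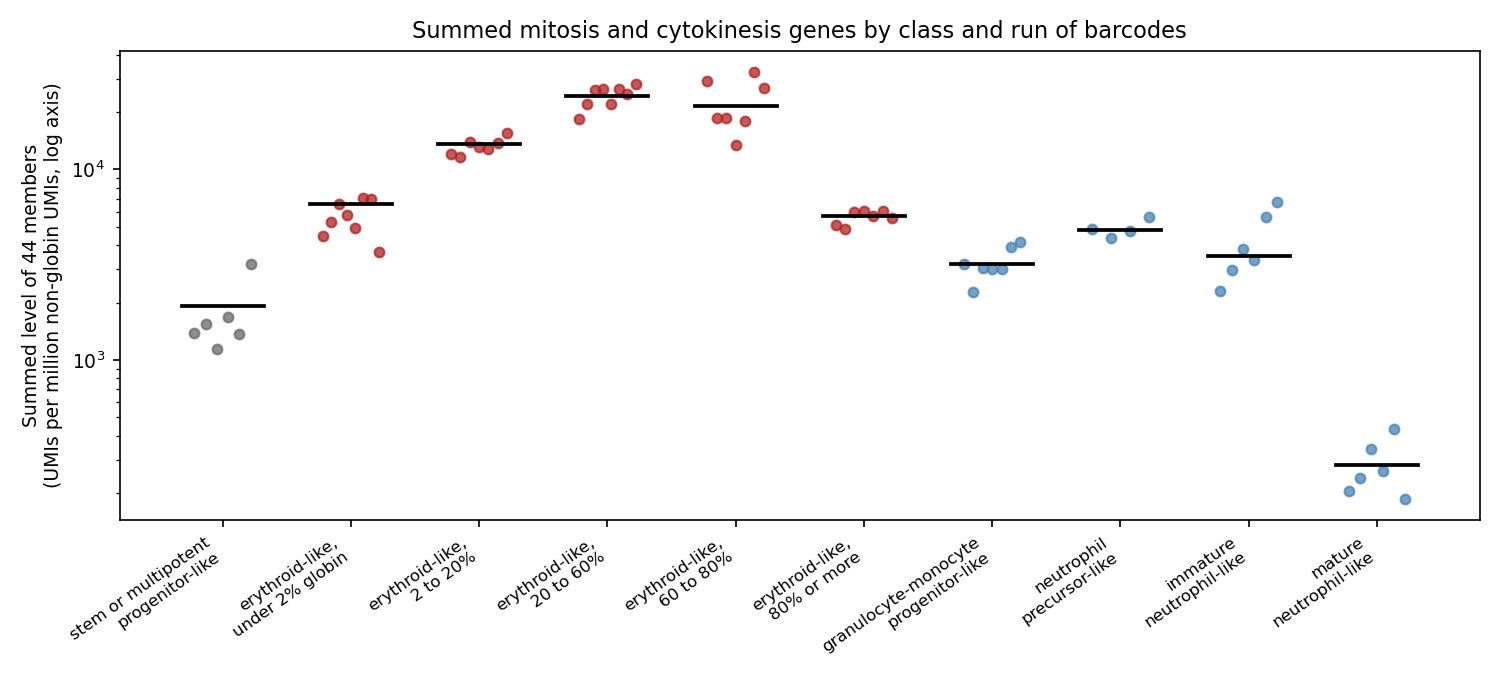
Summed level of the 44 genes in UMIs per 1000000 non-globin UMIs on a log axis, by class of cells. Each point is 1 run of barcodes with at least 20 cells of the class, and the black line is the pooled value, which peaks at 24274 in the 20 to 60% globin stage and is 280.3 in mature neutrophil-like cells.

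Genes of late G2 and mitosis are known to share a promoter layout, in which the cell cycle genes homology region (CHR), TTTGAA, is bound by repressor and activator complexes and CCAAT boxes by the factor NF-Y. RefSeq promoter windows on GRCm38.p6, from 250 bases before to 50 bases after a start site, were matched by symbol for 38 of the 44 genes, as 41 windows. Ccna2, Cdc25c, Aurkb, Incenp, Tpx2 and Kif20a had no match. On either strand, TTTGAA was in 80.5% of the 41 windows against 17.9% of all 32851 windows, and CCAAT was in 80.5% against 37.4%. The GC box GGGCGG was also in 80.5%, against 35.7%, and TTTGAA and CCAAT occurred together in 70.7% against 6.95%. The windows of Nuf2 and Nusap1 held none of the 3 motifs. These 4 windows are shown 5′ to 3′ on the gene's strand with the motifs of either strand in capitals. Bub3 (chr7:131560244-131560543, plus strand) and Ccnb2 (chr9:70421505-70421804, minus strand) come first in alphabetical order among the genes with all 3 motifs. Ube2c (chr2:164769679-164769978, plus strand) and Nusap1 (chr2:119618048-119618347, plus strand) were added after their levels were seen, because both stayed high in the last erythroid-like stage. Cdc25b also stayed high there and is not shown. Its window held CCAAT and the GC box but no TTTGAA, which 30 of the 38 genes had.
Bub3: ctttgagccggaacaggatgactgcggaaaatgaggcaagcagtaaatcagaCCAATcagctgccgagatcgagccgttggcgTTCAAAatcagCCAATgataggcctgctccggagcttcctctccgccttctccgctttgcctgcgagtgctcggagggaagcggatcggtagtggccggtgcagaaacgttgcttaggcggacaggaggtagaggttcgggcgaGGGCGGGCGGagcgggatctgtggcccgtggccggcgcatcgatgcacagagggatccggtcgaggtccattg
Ccnb2: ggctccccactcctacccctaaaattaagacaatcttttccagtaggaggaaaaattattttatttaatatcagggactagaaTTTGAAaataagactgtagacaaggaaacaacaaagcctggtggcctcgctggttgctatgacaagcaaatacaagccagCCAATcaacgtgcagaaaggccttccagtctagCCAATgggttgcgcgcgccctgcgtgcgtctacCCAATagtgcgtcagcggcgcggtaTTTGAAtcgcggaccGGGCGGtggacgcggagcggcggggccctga
Ube2c: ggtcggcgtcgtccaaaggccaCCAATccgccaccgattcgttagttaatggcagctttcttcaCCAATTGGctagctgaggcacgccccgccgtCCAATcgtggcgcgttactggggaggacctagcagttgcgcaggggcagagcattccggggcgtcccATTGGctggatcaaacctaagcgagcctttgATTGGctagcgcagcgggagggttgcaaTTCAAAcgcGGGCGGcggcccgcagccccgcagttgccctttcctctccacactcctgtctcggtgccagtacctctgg
Nusap1: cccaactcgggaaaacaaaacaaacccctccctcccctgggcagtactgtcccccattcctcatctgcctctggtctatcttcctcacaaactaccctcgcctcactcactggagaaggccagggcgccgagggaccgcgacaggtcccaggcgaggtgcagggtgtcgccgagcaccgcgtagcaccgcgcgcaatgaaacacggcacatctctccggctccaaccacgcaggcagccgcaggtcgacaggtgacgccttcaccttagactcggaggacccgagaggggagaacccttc
The Ube2c window holds 6 CCAAT boxes, of which a forward and a reverse one overlap, with 1 TTTGAA in reverse and 1 GC box. The Nusap1 window has no letter in capitals. A match describes these letters only.

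For each pair of neighbouring classes, the log2 ratio of later to earlier level was taken after adding 10 CPM to both, and centred on the median of the 6889 genes with a mean of at least 10 CPM over the classes. All 44 genes passed that filter. A gene was called when it lay at least 2-fold from the median gene in the pooled cells with the same sign in every run that had both classes. Such a call is a description and no test.

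Into the 2 to 20% globin stage, all 44 genes lay above the median gene and 21 were called higher and 0 lower, where 6.0% of all tested genes were called higher and 5.08% lower. Their median difference was 0.98 on the log2 scale, and 0.80 to 1.10 in the 7 runs. The genes of the central spindle and cytokinesis led, with 5 of 6 called: Prc1, which bundles the central spindle, Kif23 and Racgap1, its motor and partner, Ect2, which switches on RhoA, and Anln, the ring scaffold anillin. Of the 6 cyclin and Cdk1 genes, Cdk1, Ccnb2, Ccna2 and Cdc25b were called. Of the 5 spindle checkpoint genes none was, and their differences ran from 0.40 to 0.76.

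The widest step was that of Cdc25b, a phosphatase that activates Cdk1, whose runs are given because of that step. It stood at 13.5 CPM in cells under 2% globin, with runs of 0, 9.23 and 25.1, and at 198.5 CPM at 2 to 20%, with runs of 167.8, 198.6 and 219.2. The runs of the 2 stages lay far apart, and the centred difference was 3.23 (2.66 to 3.95 across 7 runs). Mki67, which coats mitotic chromosomes and is the usual mark of cycling cells, stood at 1129 CPM (runs 197.5, 659.4 and 1640.4) and then at 2661 (1871, 2666 and 3175). Its first stage was uneven between runs, but no run of it reached the second stage.

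Into the 20 to 60% stage all 44 genes again lay above the median gene, by a median of 0.77 (0.51 to 0.97 in 7 runs), and 6 were called higher and 0 lower, where 5.15% of tested genes were called higher and 3.83% lower. These were Ube2c, Cenpf, Cdc25b, Ect2, Spc25 and Kif23. Ube2c, the conjugating enzyme of the anaphase-promoting complex, went from 792.7 CPM (622.5, 827.3 and 968.2) to 2422 (1978, 2459 and 3074), and its runs did not overlap. Cenpf, a large kinetochore protein, went from 521.1 (371.4, 497.6 and 601.8) to 1292 (743.3, 1369 and 1561), also without overlap. Cdc20 and Bub3 moved least, by 0.19 and 0.24. On the scale of all UMIs, and without centring, the median difference of the 44 genes was 0.15 with 1 call, where globin took 9.0% of a cell's UMIs in the median before and 43.5% after. The median tested gene moved by -0.43 on that scale, for which the share of all tested genes called is not given. The count of 6 became 12 without run 7 and 11 without the cells of highest doublet score.

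Between 20 to 60% and 60 to 80% globin no listed gene was called in either direction, where 5.37% of tested genes were called lower and 6.72% higher. The median difference was -0.15, and single runs ranged from -0.75 to 0.59. Without run 6, 2 genes were called lower. The 5 spindle checkpoint genes lay between -0.80 and -0.43. The 6 genes of cyclins, Cdk1 and its activators lay on both sides of the median gene, with Cdk1 at -0.54, Ccna2 at -0.42, Cdc25c at 0.20, Ccnb1 at 0.45, Cdc25b at 0.54 and Ccnb2 at 0.56. No difference between role groups was tested. Bub3, a checkpoint protein at the kinetochore, went from 241.9 CPM (190.9, 233.0 and 276.9) to 108.7 (59.2, 93.5 and 190.5), and Top2a, which untangles DNA before segregation, from 1349 (937.0, 1335 and 1674) to 630.5 (299.7, 482.6 and 1216). The runs of Bub3 just failed to overlap and those of Top2a overlapped. Ccnb2, cyclin B2, stood at 684.6 (550.9, 661.7 and 809.2) and then 826.5 (510.7, 831.9 and 1267), with overlapping runs.

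In the pooled cells 35 genes had their highest stage at 20 to 60% and 9 at 60 to 80%. The 9 were Ccnb1, Ccnb2, Cdc25b, Ube2c, Cenpa, Cenpe, Cenpf, Nusap1 and Ect2. Of the 7 runs with all stages counted, Ccnb2, Cdc25b, Ube2c, Cenpa and Ect2 peaked at 60 to 80% in 5. Ccnb1, Cenpe, Cenpf and Nusap1 did so in 4, and Top2a in 1. In the remaining runs Ccnb1, Ccnb2, Cenpa, Cenpe, Cenpf and Ect2 peaked at 20 to 60%. Cdc25b, Ube2c and Nusap1 peaked at 2 to 20% or 20 to 60% in 0 runs, so their remaining runs peaked in the first or last stage. Among the 35 genes, the number of runs with the peak at 20 to 60% went from 2 for Cdc20 to 7 for Mad2l1 and Anln. With all UMIs as the total, 15 genes peaked at 2 to 20% and 29 at 20 to 60%, so the place of the peak depends on the total used. The median difference at this step was 0.16 with stage bounds of 5, 30, 50 and 75% globin, and -1.20 with 31 genes called lower on all UMIs without centring. On that last scale the median tested gene itself moved by -0.65, and the share of all tested genes called is not given.

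**Figure D2:**
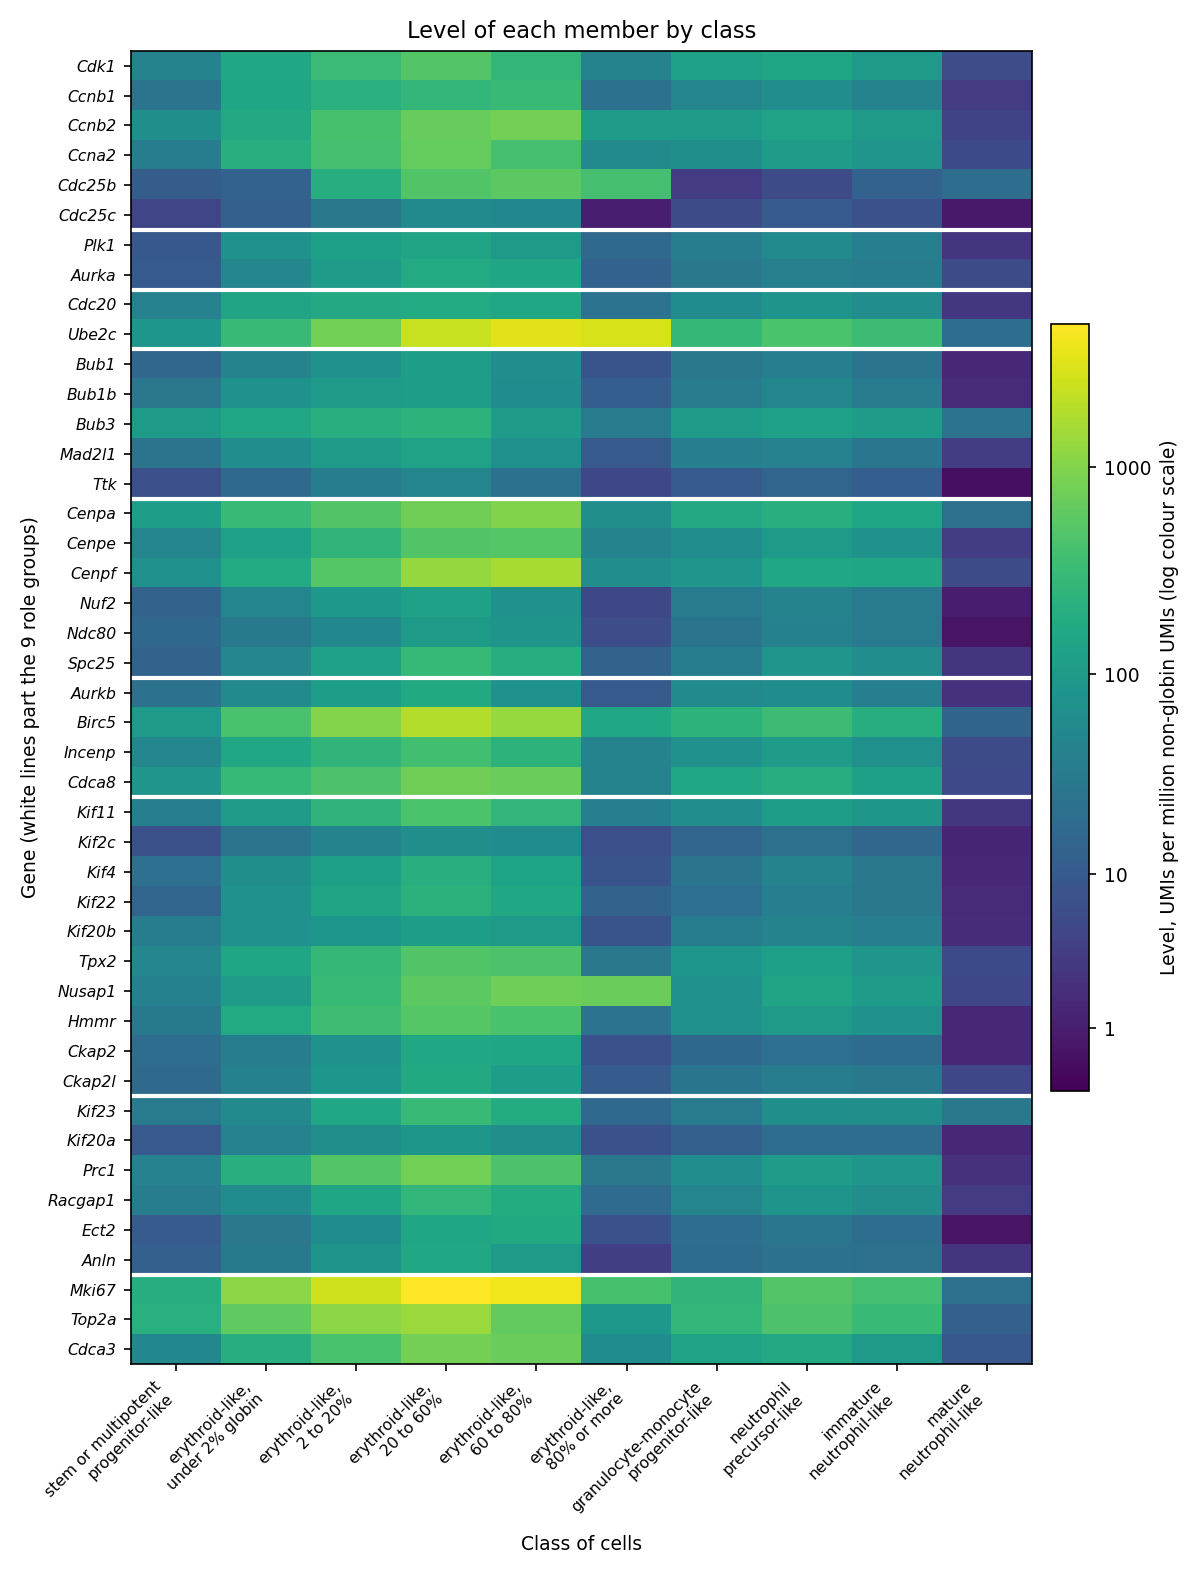
Level of each of the 44 genes (rows, parted into 9 role groups) in the 10 classes (columns), in UMIs per 1000000 non-globin UMIs on a log colour scale. Nearly all rows are brightest at 20 to 60% or 60 to 80% globin, and Ube2c (2966), Nusap1 (707.1) and Cdc25b (398.2) stay bright at 80% or more.

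Finer bins showed where the level per non-globin UMI began to drop. The summed level was 27760.2 at 40 to 50% globin, 31689.5 at 50 to 60% and 29177.5 at 60 to 70%, and then 9177 at 70 to 80%, 5496 at 80 to 90% and 5895 at 90 to 100%. The 5 runs with enough cells ranged from 21716 to 39431 at 60 to 70% and from 4686 to 18739 at 70 to 80%, without overlap. Counted per cell, the mean number of UMIs of the 44 genes was highest earlier, at 192.8 for 10 to 20% globin. It was 137.4 at 50 to 60%, 98.9 at 60 to 70% and 20.1 at 70 to 80%. At 70 to 80%, 42 of the 44 genes were below 50% of their own peak, the exceptions being Cdc25b and Nusap1. In the pooled cells Bub3 peaked at 30 to 40%, Mad2l1, Nuf2, Aurkb and Top2a at 40 to 50%, 29 genes at 50 to 60% and 10 at 60 to 70%. The last 10 were Ccnb1, Ccnb2, Cdc25b, Cdc20, Ube2c, Cenpa, Cenpf, Nusap1, Ckap2 and Ect2, among them the B-type cyclins and both listed genes of the anaphase-promoting complex. The exact bin was not stable between runs. In the 5 runs that could be compared from 10 to 90% globin, only 2 of the 44 genes peaked in their pooled bin in every run, while 37 had all their run peaks between 40 and 70%. Bub3 was nearly level in the pooled cells at 251.2, 249.4 and 246.6 CPM in the 3 bins from 30 to 60%, and its run peaks ranged from 30 to 40% up to 60 to 70%. Those of Cdc20 ranged from 20 to 30% up to 60 to 70%, and those of Mad2l1 and Top2a from 30 to 40% up to 50 to 60%.

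The 60 to 80% stage was a mixture of cells. After thinning each cell to 500 non-globin UMIs, 73.6% of cells at 50 to 60% globin held at least 10 UMIs of the 44 genes, 56.3% at 60 to 70% and 8.48% at 70 to 80%. Within the stage, a cluster led by Sowaha and Isg15 summed to 19808 CPM (16409 to 22934 in 4 runs) at a median globin share of 68.9%. Another, led by Xpo7 and Tmcc2, summed to 3953 (3339 to 4382 in 4 runs) at 73.0%. A cluster of 163 cells led by Hemgn and Hist1h2ae summed to 40647 (36815 to 50661 in 3 runs) at 63.3%, with at most 51.5% of its cells from 1 run. Clusters led by Hist3h2ba (42827) and by Tmcc2 with Bcl2l1 (18996) came to 99.1% and 94.6% from a single run each, so the mean of the stage moves with how much each run gave; its part in the result was not tested.

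The summed level of 46 DNA replication genes had a different course. It peaked at 10 to 20% globin, at 11687 CPM, and was 2408 at 60 to 70%, the bin in which the mitosis genes were still near their top. For each UMI of the 44 genes there were 1.17 replication UMIs under 2% globin (1.03 to 1.81 across runs), 0.833 at 2 to 20% (0.744 to 0.946), 0.387 at 20 to 60% (0.342 to 0.545) and 0.0847 at 60 to 80% (0.0507 to 0.143). In the last stage, with few UMIs of either list, it was 0.191 (0.0906 to 0.319). The ratio thus fell with each stage up to 60 to 80%, and the runs of these 4 stages did not overlap. Both counts come from the same cells, so the total used for scaling does not enter it. Into the 60 to 80% stage 42 of 46 replication genes were called lower, where 5.37% of tested genes were, among them Pcna, the sliding clamp (589.0 to 51.5 CPM), and Slbp, the histone mRNA binding protein (677.5 to 102.9). In the same step none of the 44 was.

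**Figure D3:**
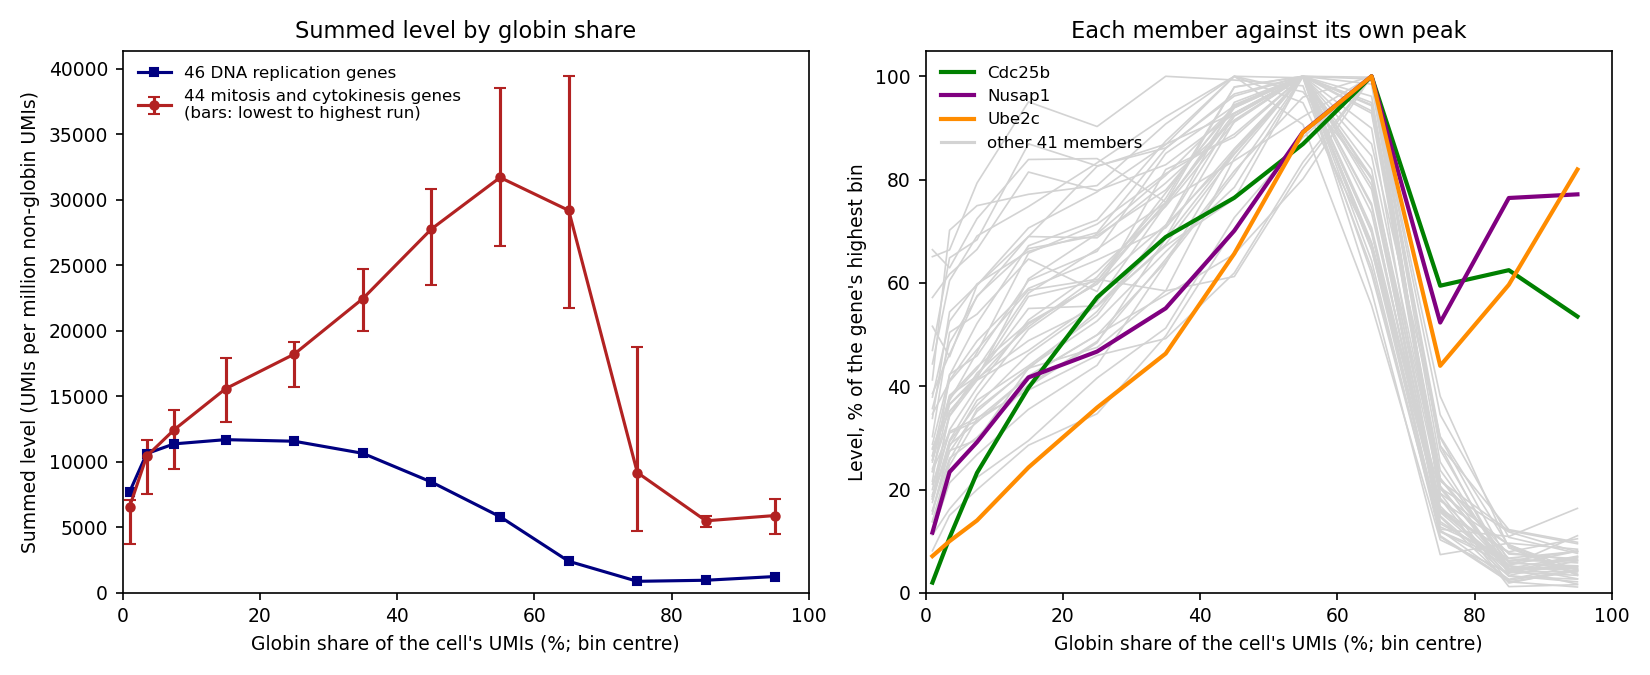
Left, summed non-globin CPM of the 44 mitosis and cytokinesis genes (red, bars from the lowest to the highest run) and of 46 replication genes (blue) against the globin share of a cell's UMIs; the red line tops at 31689.5 and drops from 29177.5 to 9177 between 60 to 70% and 70 to 80%, the blue line tops at 11687. Right, each gene as a percentage of its own highest bin, with Ube2c, Nusap1 and Cdc25b in colour above the other 41 at the right edge.

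In the last step, to 80% globin or more, 39 of the 44 genes were called lower and 0 higher, where 12.5% of tested genes were called lower and 5.07% higher. The median difference was -2.35 (-3.46 to -1.77 in 7 runs). All 6 kinetochore genes, all 6 of cytokinesis, all 4 of the chromosomal passenger complex, both kinases and all 3 chromosome and cell cycle marks were called. Cenpf moved most, from 1609.5 CPM (636.6, 1479.5 and 2869) to 62.3 (35.4, 68.4 and 128.5), a difference of -4.21. Birc5, survivin, which targets the passenger complex to centromeres, went from 1316 (627.9, 1313 and 2257) to 161.7 (50.2, 131.6 and 236.6). Prc1 went from 458.1 (230.7, 379.9 and 936.0) to 27.9 (17.7, 31.9 and 40.5). For all 3, each run of the last stage was below each run of the stage before.

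Mki67 went from 4031 CPM (2515, 3184 and 7349) to 409.5 (206.1, 342.1 and 993.9), Ccnb2 from 826.5 to 104.2 (27.4, 101.2 and 178.7), Top2a from 630.5 to 91.9 (57.6, 85.7 and 131.6), and Ect2 from 171.3 (152.1, 186.9 and 255.5) to 7.52 (0, 8.57 and 17.1). These too were parted between all runs. Aurka, the kinase of the spindle poles, went from 144.8 (61.6, 135.1 and 229.9) to 13.4 (4.28, 10.1 and 22.8), and Aurkb, the kinase of the passenger complex, from 76.0 (41.1, 62.4 and 141.6) to 10.2 (0, 10.1 and 30.8). The last rests on 19 UMIs in 1895 cells. Without centring the median was -2.63 with 39 genes called on non-globin UMIs, and -2.37 with 43 called on all UMIs. The median tested gene itself moved by -0.27 and -0.47 on these scales, and the share of all tested genes called is not given.

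The other 5 genes were not called. Ttk and Kif20b stood lower in the pooled cells, with differences of -0.82 and -2.27, but not in every run. Ube2c, Nusap1 and Cdc25b kept most of their non-globin level. Ube2c stood at 3352 CPM at 60 to 80% (2157, 3856 and 5439) and 2966 at 80% or more (2352, 3087 and 3431), a difference of 0.10 with 3 of 7 runs below 0. Nusap1, which bundles spindle microtubules, stood at 751.3 (633.8, 801.5 and 949.3) and 707.1 (465.6, 681.4 and 965.4), a difference of 0.19. Cdc25b stood at 572.8 (443.1, 596.1 and 804.9) and 398.2 (141.7, 365.0 and 643.8), a difference of -0.24. For each of the 3 the runs of both stages overlapped.

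These 3 genes made up 6.50%, 9.59%, 14.4% and 21.8% of the UMIs of the 44 genes in the first 4 stages and 71.8% in the last. The other 41 genes went from 16755 CPM (10159 to 26543) to 1596 (985.4 to 2643), which left 1.57 UMIs of them per cell. Mature neutrophil-like cells held 1.24 UMIs of these 41 genes per cell, at a level of 235.7 CPM and at greater depth. In the fine bins the 3 did not simply hold level. Ube2c was at 43.95% of its peak at 70 to 80% globin, 59.6% at 80 to 90% and 82.0% at 90 to 100%, and Nusap1 at 52.3%, 76.4% and 77.1%. Cdc25b stayed between 53.5% and 62.5%. For comparison, Ube2c stood at 304.4 CPM (158.2, 271.5 and 520.6) in the first stage.

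What was kept is a share of the RNA that is not globin. The last stage had a median of 812 non-globin UMIs per cell, against 2334 in the stage before, and Ube2c fell from 9.37 to 2.91 UMIs per cell and from 1027 to 304.2 CPM of all UMIs. On that scale and without centring the differences of Ube2c, Nusap1 and Cdc25b were -1.72, -1.54 and -1.87. Ube2c was seen in 77.2% of the cells of the last stage, and in 9.71% of mature neutrophil-like cells, which had a median of 5130.5 non-globin UMIs. Nusap1 was seen in 38.5% against 2.48% and Cdc25b in 24.4% against 9.09%. Leaving out the 6% of cells with the highest doublet scores gave 2994, 714.8 and 403.8 CPM for the 3 genes in the last stage.

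All 3 genes lie on chromosome 2 of GRCm38 (Ube2c at 164769898 to 164778822, Nusap1 at 119618298 to 119651244 and Cdc25b at 131186949 to 131198497, all on the plus strand), as do 9 of the 44. The share of all genes on that chromosome was not counted and the 3 were picked by their levels, so no meaning is given to the shared chromosome. Each of the 3 overlaps a gene on the other strand, and the sources used here do not say whether the counting used strand. The partner Tnnc2 of Ube2c had 0 UMIs in the last stage, Oip5 of Nusap1 stood at 26.9 CPM and Spef1 of Cdc25b at 1.61. These levels were far below those of the 3 genes. UMIs counted for a partner do not show how much partner RNA was counted for the listed gene, which was not tested.

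**Figure D4:**
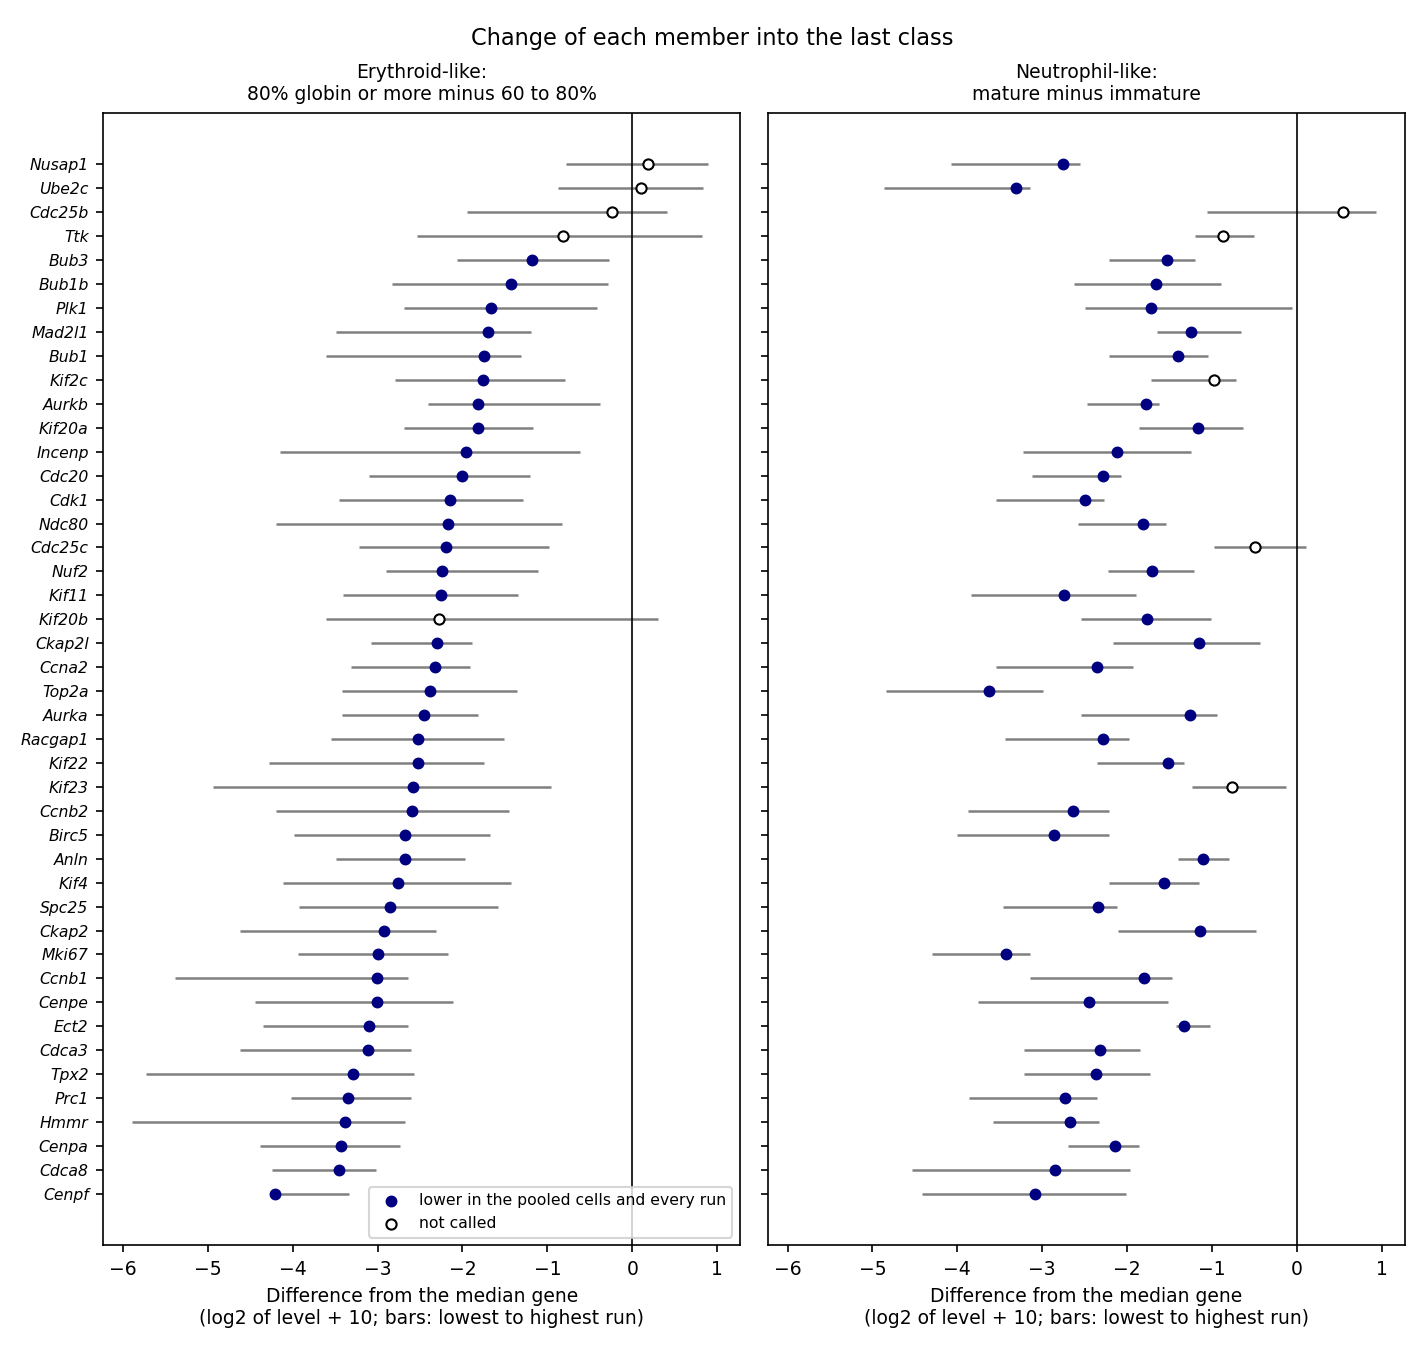
Centred log2 difference of each gene into the last erythroid-like stage (left) and from immature to mature neutrophil-like cells (right), with bars from the lowest to the highest run. Filled points were called lower, 39 of 44 in each panel, and Nusap1 (0.19), Ube2c (0.10) and Cdc25b (-0.24) stand at the top left while Ube2c (-3.31) and Nusap1 (-2.76) are among the low points on the right.

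The mix of roles within the UMIs of the 44 genes shifted late. The anaphase-promoting complex genes, Ube2c with Cdc20, took 6.84% of the UMIs of the 44 genes in the first stage (4.13 to 13.9% across runs), 7.02%, 10.7% and 16.4% (13.6 to 28.8%) in the next 3 and 52.8% (39.3 to 62.1%) in the last. Kinetochore genes took 11.5%, 11.2%, 12.7%, 16.1% and 3.47% (2.56 to 5.91%). Spindle checkpoint genes took 5.55%, 3.81%, 2.65%, 1.52% and 1.21%. Into the last stage these are shares of a sum that fell, and the anaphase-promoting complex genes went from 3509 to 2990 CPM in that step. Before it their level had risen, from 448.1 CPM in the first stage. Ube2c stood at 304.4 CPM in the first stage, 3352 at 60 to 80% and 2966 in the last. In the fine bins Ube2c stood at 1882 CPM at 70 to 80% globin, 2554 at 80 to 90% and 3509 at 90 to 100%. Cdc20 was called lower in the last step, with a difference of -2.01.

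**Figure D5:**
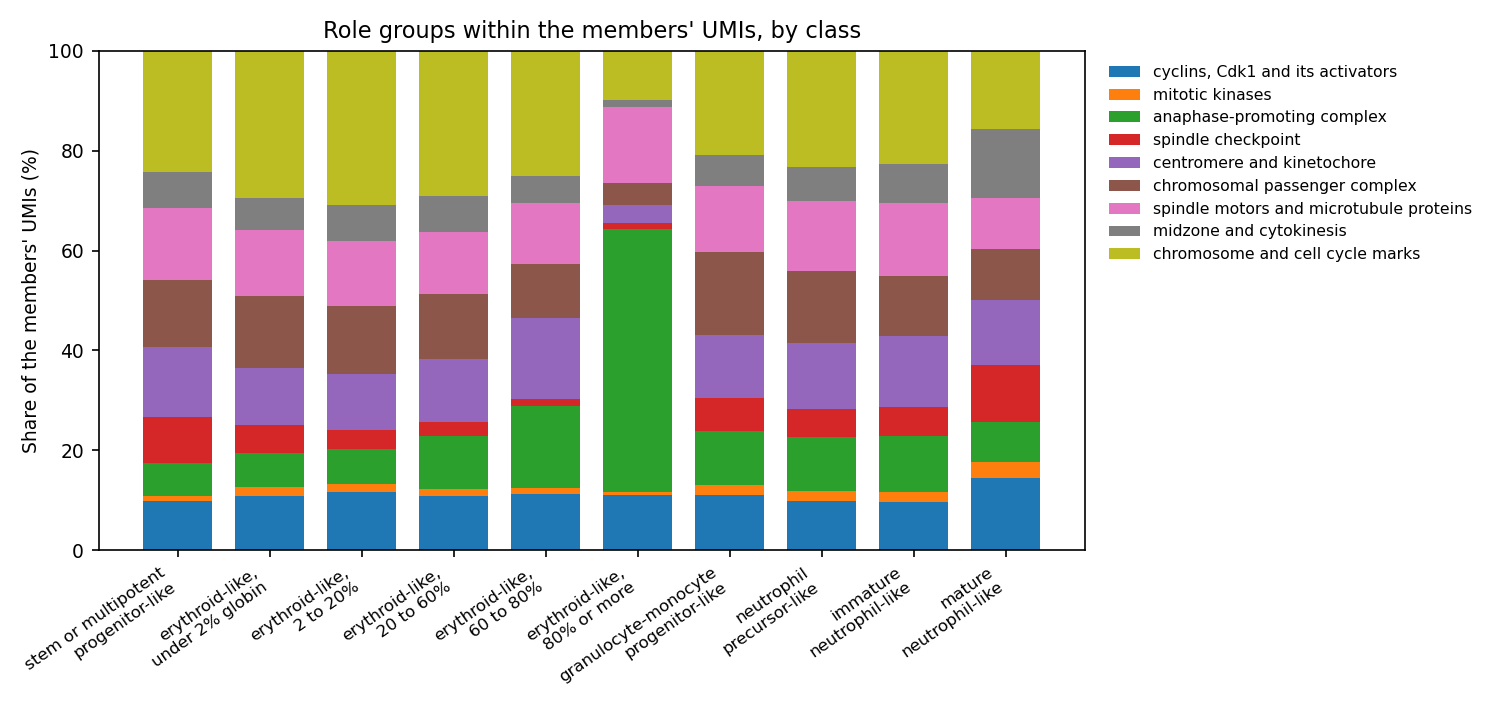
Share of each of 9 role groups in the UMIs of the 44 genes, in percent, by class. The anaphase-promoting complex group (green), made up of Ube2c and Cdc20 alone, widens to 52.8% in the last erythroid-like stage, into which Cdc20 was called lower. The kinetochore group (purple) narrows there to 3.47%.

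Cells differed within stages as well. Thinned to 500 non-globin UMIs, 50.5% of cells under 2% globin held at least 3 UMIs of the 44 genes, then 83.9%, 94.4%, 63.0% and 49.2% in the later stages. In the last stage 302 of 1895 cells were too shallow and were left out. The share was 19.5% in stem or multipotent progenitor-like cells, 22.1% in granulocyte-monocyte progenitor-like cells, 41.9% in neutrophil precursor-like cells and 22.5% in immature neutrophil-like cells. In mature neutrophil-like cells it was 3 of 966 cells, 0.311% (exact binomial interval 0.0641 to 0.905%). Without thinning the shares were 88.8%, 94.9%, 98.2%, 94.6% and 71.4% along the erythroid-like stages and 16.4% in mature neutrophil-like cells. In the last stage Ube2c, Nusap1 and Cdc25b made up 71.8% of the UMIs of the 44 genes, against 6.50% in the first. The other 41 genes summed to 1596 CPM in the last stage and 6122 in the first. The 49.2% and 50.5% of cells therefore rest on unlike mixes of genes.

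The granulocyte classes carried the same genes at lower levels. From granulocyte-monocyte progenitor-like cells (led by Elane, Mpo and Ctsg) to neutrophil precursor-like cells (led by Fcnb), all 44 lay above the median gene, by a median of 0.54 (0.47 to 0.65 in 4 runs). Cenpf, Spc25, Nusap1 and Mki67 were called higher and 0 lower, where 1.95% of tested genes were called higher and 3.99% lower. Mki67 went from 259.7 CPM (137.0, 247.9 and 393.6 across 7 runs) to 496.1 (374.8, 483.0 and 700.8 across 4), and Nusap1 from 69.6 (43.9, 64.9 and 123.7) to 140.4 (117.0, 144.3 and 173.8). The runs of both genes overlapped between the classes, though within each of the 4 runs both were higher in the precursor-like cells relative to the median gene. Without centring the median was 0.39 and 1 gene was called, and without run 2 the count was 2. The median tested gene moved by -0.15 without centring.

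No listed gene was called between neutrophil precursor-like and immature neutrophil-like cells, where 2.51% of tested genes were called lower and 4.09% higher. The median was -0.17 (-0.67 to 0.13 in 4 runs), and it was 0.034 with finer clustering at resolution 2. At that resolution a cluster of 737 cells led by Mmp8 and Mmp9 took no stage name and was left out of the immature class. From immature to mature neutrophil-like cells 39 of 44 were called lower and 0 higher, where 7.11% of tested genes were called lower and 8.84% higher, with a median of -1.81 (-2.66 to -1.55 in 6 runs). Top2a moved most, from 311.6 CPM (183.3, 313.7 and 686.1) to 12.6 (9.08, 13.4 and 17.4), a difference of -3.63. Ube2c went from 331.3 (216.8, 339.4 and 696.8) to 19.9 (7.501, 10.98 and 26.51), and every run of it was below every run before.

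The immature class holds a cluster led by Chil3, Orm1 and Ngp, in which the 44 genes summed to 4930.1 CPM (3920 to 7424 in 6 runs), and a cluster led by Mmp8, Mmp9 and Ly6g, in which they summed to 214.3 (179.2 to 832.7 in 5 runs). The second was already at the level of mature neutrophil-like cells. With coarser clusters at resolution 0.5 the Chil3-led cluster took no stage name and was left out, so the immature class was an Mmp8-led cluster alone. The step to mature cells then had a median of -0.42 and 5 genes were called lower.

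Cdc25b, Cdc25c, Ttk, Kif2c and Kif23 were not called in the last neutrophil step. Cdc25b was the only one of the 44 whose highest granulocyte class was the mature one, at 19.7 CPM (7.501, 20.39 and 26.04) against 6.13 in precursor-like and 13.5 in immature cells. That is far below the 398.2 of the last erythroid-like stage. Kif23, picked from these 5 after its values were seen, stood at 88.9 CPM in the Chil3-led cluster, 9.68 (8.88 to 21.8) in the Mmp8-led cluster and 28.5 (8.59 to 43.4) in mature cells, so runs of the last 2 overlap.

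Of 76 other mitosis genes, 74 passed the filter on level. In the 4 erythroid-like steps 22, 11, 2 and 1 were called higher, where 6.0%, 5.15%, 6.72% and 5.07% of tested genes were. Called lower were 0, 0, 5 and 51, where 5.08%, 3.83%, 5.37% and 12.5% of tested genes were. The medians were 0.79, 0.64, -0.29 and -1.61. In the third step the 5 lower and 2 higher of 74 lay close to or under those shares. Tubb4b, a tubulin, stood at 2113 CPM at 20 to 60%, 2631 at 60 to 80% and 306.8 in the last stage. Hmgb2, a chromatin protein, stood at 4888, 3655 and 511.5. Pttg1 was the gene called higher in the last step and, with Fzr1, in the step before. These 2, which encode securin and Cdh1, were named after their values were seen. Pttg1 stood at 53.3, 288.3 and 763.0 CPM in the last 3 stages. It had 1706 UMIs in the 2117 cells at 60 to 80% and 1420 in the 1895 cells of the last stage. The rise in that step was thus in its share of non-globin UMIs and not in its UMIs per cell. Fzr1 stood at 336.1, 847.4 and 556.1, with runs of 151.2 to 899.7 in the last stage. Anapc5, Ezr, Kif15, Mybl2 and Ncapd3 were called lower into the 60 to 80% stage. Anapc5, a subunit of the anaphase-promoting complex, went from 373.0 to 144.0 CPM in that step. Cdc27, another subunit, was 1 of the 51 genes called lower in the last step, from 34.98 to 8.06. These subunits too were named after their values were seen.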

How the data were processed

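Single-cell RNA was measured in 8 samples. What the authors deposited is a single matrix of raw UMI counts without library names. Per the submitters' processing notes, Cell Ranger 5.0.0 and Seurat 3.1.5 were used with mm10. The sources used here give no cell filters. The minimum was 200 genes per cell and the maximum 20% mitochondrial UMIs. Scrublet called 17 doublets (0.068%), too few to have worked, and these were left out, so other doublets remain among the 24925 cells. Clustering used scanpy 1.11.5 and leidenalg 0.10.2 with 2000 variable genes, 30 components, 15 neighbours and resolution 1, giving 33 clusters. A cluster took the name of the class with most markers among its 50 leading genes. For each class the counts of its cells were added up and scaled to CPM without the 8 globin genes, with exact 95% Poisson intervals. Intervals cover counting error only. UMIs of genes that overlap another gene may be shared with it.

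Genes named with values by run were, in each role group, the one of highest mean level and the one whose step from 20 to 60% to 60 to 80% globin lay farthest from the members' median. Cdc25b and Kif23 were added after their values were seen. The members and lists were chosen with earlier results of these data known. Counts simulated with 4-fold changes in 98 to 100 genes per comparison had the right direction in 99.0 to 100% and were called in 61.6 to 86.7%, and 2-fold changes were called in 2.0 to 7.0%. A 2-fold change is therefore mostly missed by the rule. Alternatives covered clustering, scaling, the added CPM, the level filter, cell filters, doublet scores, stage bounds, repeated barcodes, thinning and leaving out each run.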

Additional observations from a re-analysis of the deposited data

Results flagged for a closer look

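In stem or multipotent progenitor-like cells, 1 of the 6 runs counted stood apart from the others in the summed level of the 44 genes. It was at 3177 CPM over 337 cells, and the nearest of the other runs was at 1687. The gap was 0.732 of the whole range. Each of the 10 classes was looked at in this way where it had 4 or more runs, and chance alone marks about 1 group in 20.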

How the results depend on the processing

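The step to 80% globin or more kept its direction and stayed within 1.5 times its count under every alternative run. Counts of genes called under the alternatives are given without the share of all tested genes called under them. Without centring and on all UMIs, the 2 to 20% step had a median of 0.76 and 12 genes higher, the 20 to 60% step 0.15 and 1, the 60 to 80% step -1.20 with 31 genes lower, and the precursor step 0.39 and 1. The median tested gene itself moved by -0.18, -0.43, -0.65 and -0.15 in these steps. Without centring on non-globin UMIs, 1 gene was lower at 60 to 80% and the precursor step had 0.39 and 1. With 1 CPM added the medians were 1.11 (2 to 20%), 0.73 with 8 higher (precursor) and -3.24 (mature), and 14 genes were higher at 20 to 60%. With no minimum level, 1 gene was lower at 60 to 80% and the precursor step had 0.40 and 1. Leaving out the highest doublet scores gave 11 genes higher at 20 to 60%. Stage bounds of 5, 30, 50 and 75% gave 0.63 and 3 at 20 to 60%, and turned the 60 to 80% median to 0.16. Resolution 2 turned the immature neutrophil median to 0.034, and resolution 0.5 gave -0.42 with 5 lower for the mature step. In both, the immature class held other cells, since a neutrophil cluster without a stage name was left out of it. The cause of these shifts was not tested. Leaving out each run in turn gave 5 to 12 genes higher at 20 to 60% (12 without run 7), 0 to 2 lower at 60 to 80% (2 without run 6) and 2 to 5 higher at the precursor step (2 without run 2), and the other 11 results stayed within their limits. No neutrophil precursor-like class formed at resolution 0.5 or with the listed genes kept in the clustering, so its 2 comparisons have no value there. The shares of cells after thinning depend on depth and cut: thinned to 200 UMIs they moved in all 10 classes. No paired analysis was possible because the columns carry no replicate numbers, the runs could not be tied to samples and no test was made; differences between classes were taken within each run as well as in the pooled cells. Depth limits the last erythroid-like stage most, where Aurkb rests on 19 UMIs.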
